A study of Mus musculus with 24 samples.

Results

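The piRNA pathway genes described here are 10 mouse genes, taken by symbol from a table of 55450 genes: the PIWI proteins Piwil1, Piwil2 and Piwil4, the tudor domain proteins Tdrd1, Tdrd5 and Tdrd6, the RNA helicases Tdrd9, Ddx4 and Mov10l1, and the cofactor Mael. They were measured by RNA sequencing in testes of mice lacking Thumpd1 (KO) and of wild-type mice (WT), with liver and cerebellum of the same genotypes as background tissues. Thumpd1 encodes the adapter with which the enzyme Nat10 acetylates a cytidine of leucine and serine tRNAs. The KO allele was made with Cas9 and a pair of guides that target exons 1 and 4, in fertilized C57BL/6N eggs, and mice were bred onto C57/BL6. The labels name no other allele and no treatment in either genotype, and ages ran from 6 to 12 weeks. Controls were in general matched for litter and age. Libraries are numbered 1 to 4 for WT and 5 to 8 for KO in each tissue, which gives 24 libraries in 6 groups of 4.

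In the germ line, PIWI proteins carry small RNAs called piRNAs, which guide them to transposon transcripts and to other RNAs of matching sequence. Long precursor transcripts are bound by the helicase Mov10l1, cut at the outer mitochondrial membrane by the nuclease Pld6, trimmed by Pnldc1 and methylated at the 3′ end by Henmt1. Tudor domain proteins bind methylated arginines of the PIWI proteins and hold the machinery in the granules of germ cells known as nuage and the chromatoid body. In fetal prospermatogonia Piwil2 and Piwil4 act in transposon silencing and DNA methylation, whereas Piwil1 (MIWI) appears at the pachytene stage of meiosis and stays into the spermatid. The transcription factor Mybl1 (A-MYB) drives piRNA precursors and many genes of the pathway in pachytene spermatocytes. In adult testes, transcripts of the pathway therefore come mainly from meiotic cells and spermatids.

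Promoter windows are shown for 3 members, chosen because Piwil1 had the highest level per length of the PIWI genes in testes, Tdrd9 was the member called in KO testes and Mael had the highest level per length. Each is the 300-base window that RefSeq gives around the start of the gene on GRCm38.p6, the assembly also known as mm10, written 5′ to 3′ on the gene's own strand. Capitals mark the core of the MYB binding motif, AACNG, or the same letters on the opposite strand, CNGTT. The Piwil1 window is chr5:128735996-128736295 on the + strand, inside the longer span that GENCODE gives the gene, the Tdrd9 window is chr12:111971309-111971608 on the + strand, and the Mael window is chr1:166238695-166238994 on the - strand.
Piwil1: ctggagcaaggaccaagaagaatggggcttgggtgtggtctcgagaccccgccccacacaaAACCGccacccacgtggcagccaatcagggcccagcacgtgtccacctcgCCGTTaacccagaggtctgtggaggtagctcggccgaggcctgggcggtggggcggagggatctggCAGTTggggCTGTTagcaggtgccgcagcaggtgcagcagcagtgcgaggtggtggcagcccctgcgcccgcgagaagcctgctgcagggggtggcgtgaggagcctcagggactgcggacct
Tdrd9: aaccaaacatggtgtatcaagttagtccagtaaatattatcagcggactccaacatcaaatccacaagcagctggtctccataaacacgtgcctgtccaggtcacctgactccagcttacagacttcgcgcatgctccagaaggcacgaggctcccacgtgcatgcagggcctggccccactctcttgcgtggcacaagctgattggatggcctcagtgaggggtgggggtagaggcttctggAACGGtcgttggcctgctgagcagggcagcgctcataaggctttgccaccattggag
Mael: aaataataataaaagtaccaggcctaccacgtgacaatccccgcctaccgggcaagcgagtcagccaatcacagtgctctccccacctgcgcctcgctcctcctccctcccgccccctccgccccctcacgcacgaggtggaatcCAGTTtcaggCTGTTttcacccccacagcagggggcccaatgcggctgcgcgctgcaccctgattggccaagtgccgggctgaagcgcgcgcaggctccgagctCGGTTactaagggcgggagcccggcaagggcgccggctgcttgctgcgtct
The Piwil1 window held 4 matches, the Mael window 3 and the Tdrd9 window 1. RefSeq windows were found for 8 members, some with several windows, and all 11 of these windows held at least 1 match. This is a description only, since 80.3% of the 32851 windows of all genes also held a match and the median was 2 matches both over all windows and over the members' windows.

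The libraries were first compared with their labels. Thumpd1 was counted at 24.3 to 26.3 CPM (counts per 1000000 of the library total) in WT testes and at 0.768 to 1.14 CPM in KO testes, a log2 change of -4.81 ± 0.148 (SE, n = 4 per group, limma-voom, adjusted p = 2.65e-08). Testes totals ran from 27273231 to 36621604 counts, and Mov10l1, the member with the fewest counts of the 9 tested, had 12534 over the 4 WT libraries. Testis markers were well counted, and the 4 hepatocyte markers summed to at most 0.448 CPM and the 4 cerebellar neuron markers to at most 0.137 CPM in any testes library. WT replicate 2 stood apart from the other WT testes: Crisp1, a secretory gene of the epididymis, was at 95.2 CPM there and at 0.0623, 0.401 and 0.157 CPM in the other 3, while the KO libraries lay between 13.3 and 23.7 CPM. Adam7 followed the same pattern, with 15.3 CPM in WT replicate 2, 0 to 0.0628 CPM in the other WT libraries and 3.22 to 5.09 CPM in KO. Rnase10 stayed at 3.36 to 5.18 CPM throughout, and Lcn5 and Lcn8 had 0 counts. KO replicates 5 and 6 were alike, with a chi-square of 3.21 per gene between them, against 13.7 to 28.3 for the other pairs of KO testes. Pairs of WT testes had 2.23 to 11.4, the lowest between WT replicates 3 and 4. No pair held the same counts, but these values cannot show whether a pair came from the same mouse. The study calls the 4 libraries of a group biological replicates, and the labels do not tie each library to a mouse.

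The members were testis genes in this series. Levels between genes are given as RPKM, the CPM divided by the kilobases of exon that GENCODE M21 lists for the gene. In WT testes the order was Mael (474 ± 13.6 RPKM, SD, n = 4), Tdrd6 (135 ± 4.89), Ddx4 (117 ± 5.07), Piwil1 (97.2 ± 3.04), Tdrd1 (39.0 ± 0.34), Piwil2 (38.4 ± 0.457), Tdrd9 (31.0 ± 0.83), Mov10l1 (23.8 ± 0.567), Tdrd5 (16.6 ± 0.589) and Piwil4 (0.119 ± 0.0374). Of the neighbours in this order, Tdrd1 (38.6 to 39.4 RPKM) and Piwil2 (37.8 to 38.7) overlapped, and all other neighbouring pairs were separated in the 4 WT libraries. In KO testes the order was the same but for Piwil2 (42.3 ± 3.19 RPKM) and Tdrd1 (38.7 ± 2.46), which changed places with overlapping ranges. Tdrd6 (121 to 135 RPKM) and Ddx4 (115 to 135 RPKM), apart in WT, overlapped in KO, as did Tdrd1 (36.2 to 42.0 RPKM) and Tdrd9 (31.7 to 37.8 RPKM).

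**Figure D1:**
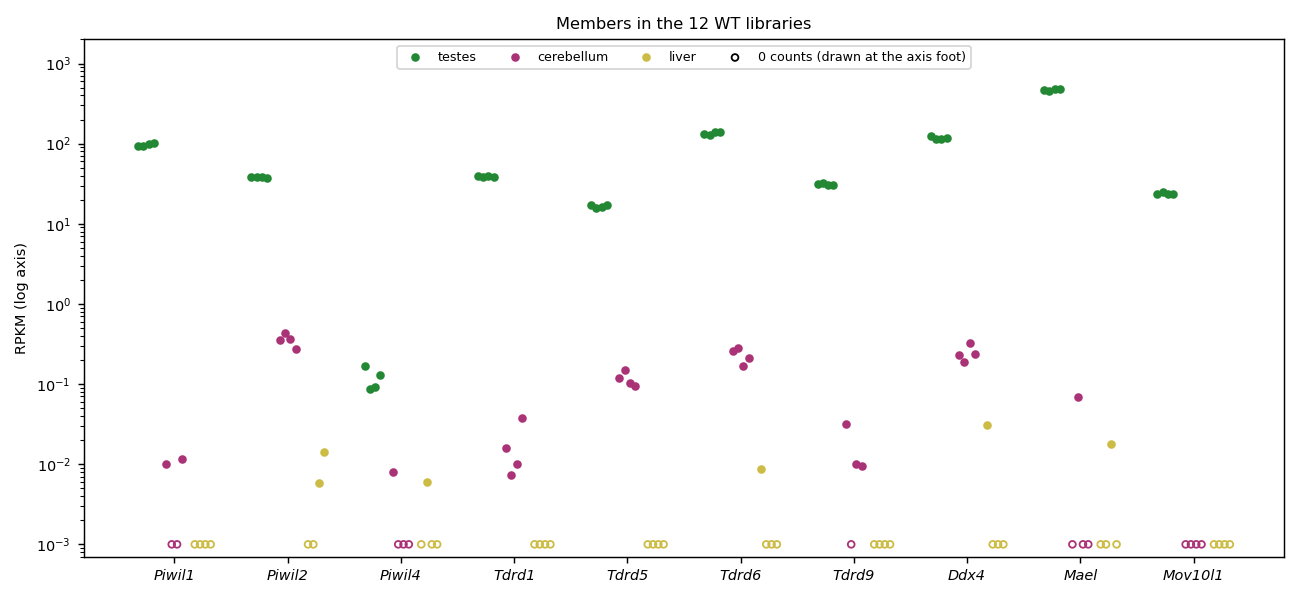
RPKM of the 10 members (log axis) in the 12 WT libraries, 1 point per library, coloured by tissue, with libraries at 0 counts drawn as open points at the foot of the axis. Testes points of 9 members lie between 15.8 and 486 RPKM, those of Piwil4 at 0.0865 to 0.168 RPKM, and only Piwil2, Tdrd5, Tdrd6 and Ddx4 have cerebellum points in all 4 libraries above 0.09 RPKM.

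Of the 10 members, 9 passed the low-count filter in the comparison of WT tissues (at least 1 CPM in 4 of 12 libraries) and Piwil4 did not. All 9 were called higher in WT testes than in WT liver and 9 of 9 than in WT cerebellum (limma-voom with TMM factors, adjusted p under 0.05), where 55.8% and 50.7% of all genes tested were called higher in testes. Piwil2 and Tdrd6 also reached 1 CPM in all 4 WT cerebellum libraries, while the other 7 passed the filter through testes alone, so that for these 7 a higher level in testes was set by the filter. In WT liver, Piwil1, Tdrd1, Tdrd5, Tdrd9 and Mov10l1 had 0 counts in every library. Set against 3 counts per library, the limit that a count of 0 allows, their mean CPM in testes was at least 4318-fold, 2166-fold, 1171-fold, 1710-fold and 1013-fold higher. In WT cerebellum Mov10l1 also had 0 counts and was at least 711-fold higher in testes. Tdrd6 was 590-fold, Ddx4 477-fold, Tdrd5 142-fold and Piwil2 108-fold higher in WT testes than in WT cerebellum by the ratio of mean CPM, and Piwil2 had the highest cerebellum level of the 10 per length, at 0.355 ± 0.0678 RPKM. Piwil4, the PIWI protein of fetal germ cells, had 15 to 29 counts in a WT testes library and at most 1 in any WT liver or cerebellum library.

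Most members differed little between KO and WT testes. Across 19331 genes tested, 3971 (20.5%) were called in either direction, 9.77% higher and 10.8% lower (limma-voom with quantile normalization, Benjamini-Hochberg adjusted p under 0.05). Of the 9 members tested, 1 was called higher, Tdrd9, and 0 were called lower. At an unadjusted p under 0.05 there were 4, Tdrd9, Piwil2, Ddx4 and Mov10l1, all above 0, where 37% of all genes tested reached that threshold in either direction and 18.2% on the higher side. The members' log2 changes ran from -0.10 to 0.19, with 6 above 0 and 3 below, a median of 0.07 and a median size of 0.10, beside a median of 0.00 and a median size of 0.17 over all genes tested. edgeR called 0 of the 9 members, whereas DESeq2 and limma-voom with TMM factors each called 1, which was Mael and not Tdrd9. In bulk tissue, fewer cells of a type and less RNA per cell cannot be told apart.

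**Figure D2:**
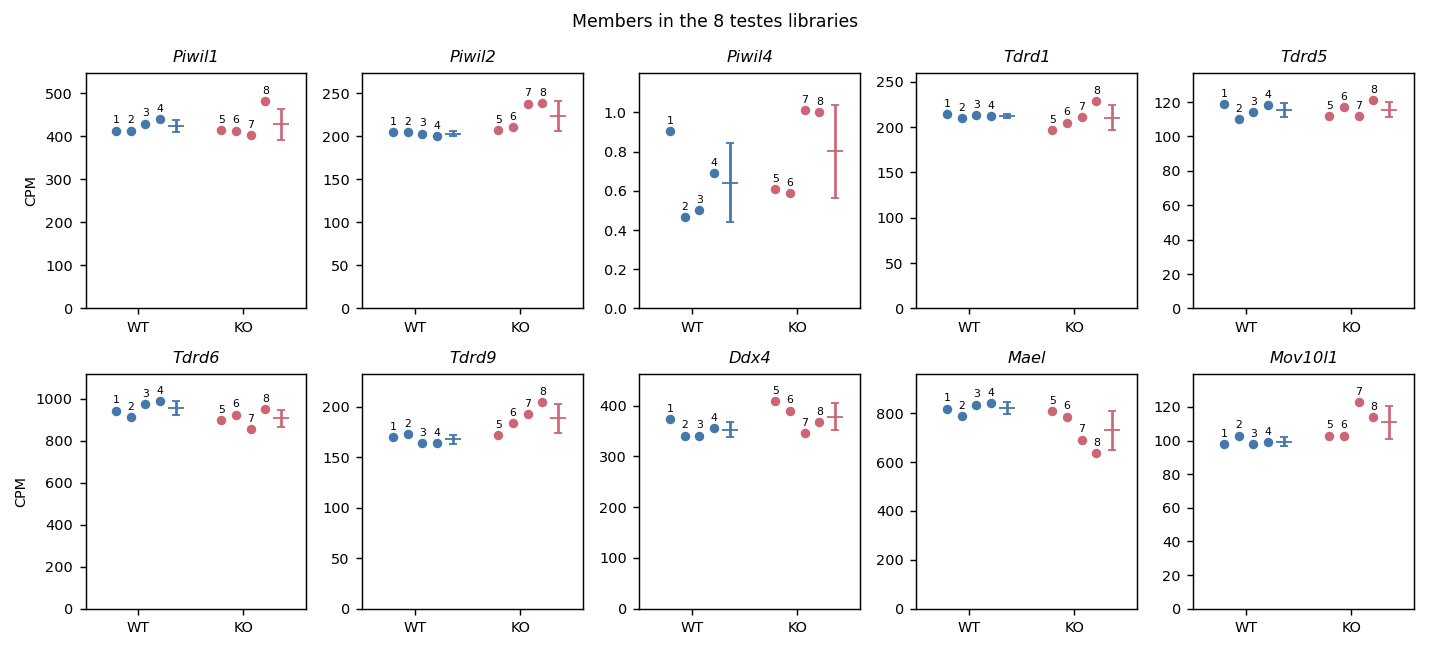
CPM of each member in the 8 testes libraries, WT in blue and KO in red, with replicate numbers beside the points and the mean and SD of each genotype at their right. Axes start at 0. KO libraries of Piwil2 and Mov10l1 all lie above the WT libraries, KO replicates 7 and 8 of Mael (692 and 637 CPM) lie below all others, and the remaining members overlap.

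Among the PIWI proteins, Piwil1 (chr5:128702524-128755474, + strand, mm10) binds pachytene piRNAs and is needed in spermatids. It was at 413, 413, 429 and 440 CPM in WT and at 414, 413, 403 and 481 CPM in KO. KO replicate 8 was the highest of the 8 and the groups overlapped. The fitted log2 change was 0.07 ± 0.0538 (SE, adjusted p = 0.355, limma-voom), with a 95% interval of 0.968-fold to 1.14-fold, and the sign turned with other scalings, to -0.04 in edgeR and -0.05 in DESeq2 and in limma-voom with TMM factors.

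Piwil2 (chr14:70372477-70429383, - strand), which encodes MILI and acts from the fetal stage to the round spermatid, was at 205, 205, 203 and 200 CPM in WT and at 207, 211, 238 and 239 CPM in KO. All 4 KO libraries lay above all 4 WT libraries, KO replicates 5 and 6 only slightly so. Its change of 0.17 ± 0.0603 on the log2 scale did not pass (adjusted p = 0.0608, limma-voom, interval 1.03-fold to 1.24-fold). Without WT replicate 2 its adjusted p was 0.105. Without KO replicate 5 or without KO replicate 6 it was called, at 0.21 (adjusted p = 0.025) and 0.20 (adjusted p = 0.0432), and its adjusted p ranged from 0.025 to 0.411 over all alternatives.

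Piwil4 (chr9:14696230-14740733, - strand), which encodes the nuclear PIWI protein MIWI2, was not tested because it failed the filter of 1 CPM in 4 libraries. It had 29, 15, 15 and 22 counts in WT testes and 19, 16, 37 and 29 in KO, or 0.640 ± 0.201 and 0.802 ± 0.237 CPM (SD, n = 4). The groups overlapped, with KO replicates 7 and 8 the highest. A fit with no filter gave a log2 change of 0.20 with an interval from -0.41 to 0.81 (limma-voom, adjusted p = 0.707). The interval is wide and holds changes in either direction. Its exons overlap Gm10706 on the other strand, and whether reads were counted by strand is not given in the sources used here, which leaves these counts uncertain.

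The tudor domain members Tdrd1, Tdrd5 and Tdrd6 had the smallest fitted differences with quantile normalization, an order that did not hold in edgeR or DESeq2. Tdrd1 (chr19:56826209-56870012, + strand), a scaffold of the intermitochondrial cement that binds Piwil2, was at 214, 210, 213 and 212 CPM in WT and at 197, 205, 211 and 229 CPM in KO. KO libraries fell on both sides of a narrow WT range. The log2 change was 0.02 ± 0.0528 (adjusted p = 0.823, limma-voom, interval 0.935-fold to 1.10-fold), and its sign turned without KO replicate 8 (-0.02) and in edgeR (-0.07), DESeq2 (-0.08), limma-voom with TMM factors (-0.07) and with sample quality weights (-0.03).

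Tdrd5 (chr1:156255296-156303664, - strand), which is needed for piRNA processing and the chromatoid body, was at 119, 110, 114 and 118 CPM in WT and at 112, 117, 112 and 121 CPM in KO. The groups covered the same range and the fitted change was -0.00 ± 0.0514 (adjusted p = 0.999, limma-voom, interval 0.925-fold to 1.08-fold). Part of its exons overlaps 4930518J20Rik on the other strand. Tdrd6 (chr17:43615335-43630299, - strand), a large chromatoid body protein of spermatids, was at 944, 913, 977 and 989 CPM in WT and at 899, 925, 857 and 951 CPM in KO. KO replicate 7 was the lowest of the 8, yet the groups overlapped, and the log2 change was -0.05 ± 0.0379 (adjusted p = 0.393, limma-voom, interval 0.914-fold to 1.03-fold).

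Of the 3 helicases, Tdrd9 passed, and Ddx4 and Mov10l1 did not. Tdrd9 (chr12:111971559-112068854, + strand), an RNA helicase with a tudor domain that works with Piwil4 in transposon silencing, was at 170, 173, 164 and 164 CPM in WT and at 172, 184, 193 and 205 CPM in KO. KO replicate 5 fell within the WT range and the other 3 lay above it. The rise was 1.14-fold (interval 1.04 to 1.26), a log2 change of 0.19 ± 0.062 with an adjusted p of 0.0477 (limma-voom), just under the threshold. Leaving out any testes library other than KO replicate 5 ended the call, with adjusted p from 0.0523 to 0.13, and over all alternatives the adjusted p ranged from 0.0122 to 0.279. The values without single libraries were 0.0848 (WT replicate 1), 0.0726 (WT replicate 2), 0.129 (WT replicate 3), 0.13 (WT replicate 4), 0.0523 (KO replicate 6), 0.112 (KO replicate 7) and 0.0904 (KO replicate 8). With edgeR the change was 0.11 (adjusted p = 0.196) and with DESeq2 0.10 (adjusted p = 0.254).

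Ddx4 (chr13:112598333-112652475, - strand), the mouse VASA helicase and a marker of germ cells, was at 373, 341, 341 and 356 CPM in WT and at 408, 390, 346 and 368 CPM in KO. KO replicates 5 and 6 were highest, and KO replicates 7 and 8 lay within the WT range. The log2 change of 0.15 ± 0.0518 did not pass (adjusted p = 0.0616, limma-voom, interval 1.02-fold to 1.20-fold), while sample quality weights gave 0.20 (adjusted p = 0.00177) and the fit without WT replicate 1 gave 0.18 (adjusted p = 0.0466). In edgeR, DESeq2 and limma-voom with TMM factors the change was 0.04, with adjusted p of 0.642, 0.739 and 0.664.

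Mov10l1 (chr15:88982909-89055152, + strand), the helicase that feeds precursors into processing, was at 98.1, 103, 97.7 and 98.9 CPM in WT and at 103, 103, 123 and 114 CPM in KO. The lowest KO values lay just above the highest WT value, so the groups did not overlap. The log2 change was 0.15 ± 0.0668 (adjusted p = 0.116, limma-voom, interval 1.01-fold to 1.23-fold). Piwil2 and Mov10l1 were thus the 2 of 9 tested members with every KO library above every WT library, and 0 were wholly below, beside 18.8% and 9.81% of all genes tested.

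Mael (chr1:166201201-166238747, - strand), an HMG-box protein of nuage that acts in transposon silencing and the making of pachytene piRNAs, was at 819, 789, 835 and 842 CPM in WT and at 807, 786, 692 and 637 CPM in KO. KO replicates 7 and 8 were the lowest of all, and KO replicates 5 and 6 lay at the WT level. It did not pass, with a log2 change of -0.10 ± 0.0694 (adjusted p = 0.319, limma-voom, interval 0.84-fold to 1.04-fold). Mael ranged from -0.14 to -0.02 with a library left out, and was at -0.02 without KO replicate 8. With TMM factors it was called lower, at -0.23 (adjusted p = 0.0397), as it was in DESeq2, at -0.23 (adjusted p = 0.023). edgeR gave the same change of -0.23 but no call (adjusted p = 0.0505), so this call depended on both the scaling and the tool.

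**Figure D3:**
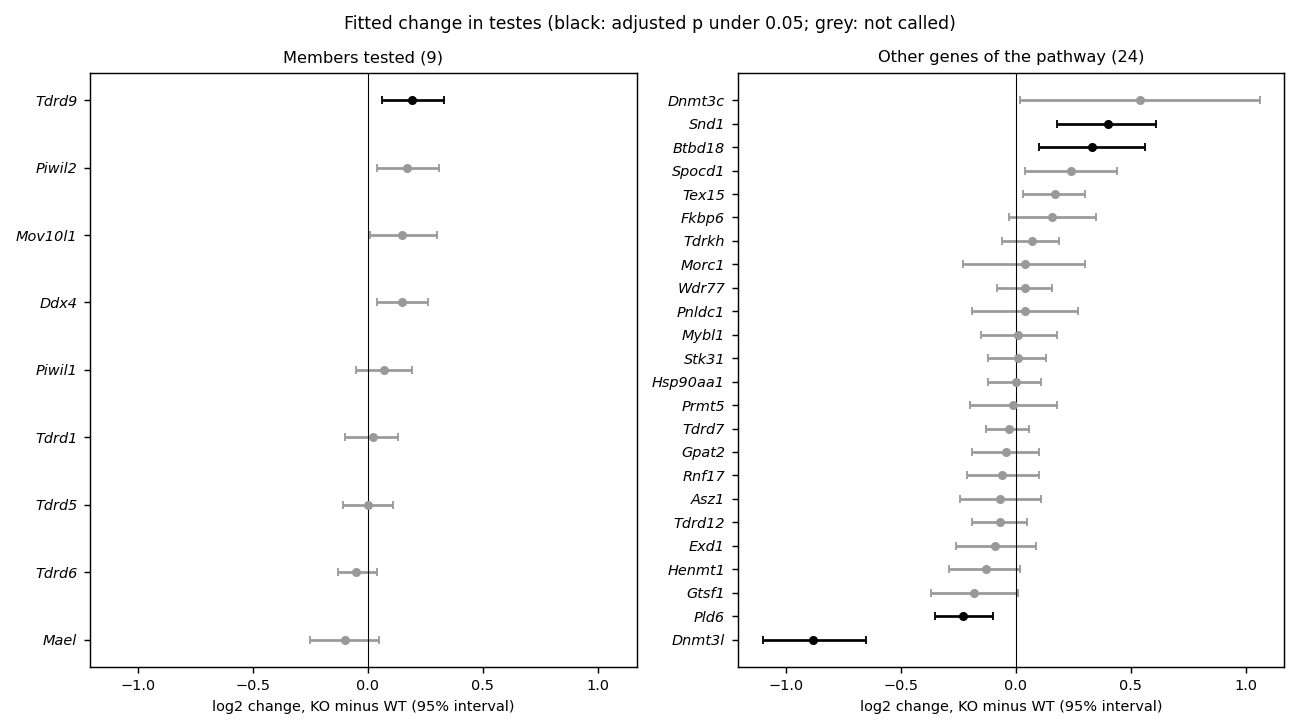
Fitted log2 change of KO minus WT testes with its 95% interval, for the 9 members tested (left) and the 24 other genes of the pathway (right), sorted by value, with genes of adjusted p under 0.05 in black. Tdrd9 at 0.19 is the single black point at the left, and Snd1 (0.40), Btbd18 (0.33), Pld6 (-0.23) and Dnmt3l (-0.88) are black at the right.

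The members' median moved with the scaling. It was 0.07 with quantile normalization, 0.11 in one fit over all libraries, -0.05 with TMM factors and in DESeq2, -0.04 in edgeR and 0.00 with sample quality weights, while the median of all genes stayed within 0.02 of 0. Centring the libraries on 13 spermatocyte markers put the median of all genes at 0.21 and that of the members at 0.14, so that the members' median lay below the shift, with Tdrd9 (0.30), Mov10l1 (0.29), Piwil2 (0.27) and Ddx4 (0.23) above it. Under that centring 91.1% of calls were higher in KO, against 47.5% in the fit given above, and Tdrd9, Piwil2, Ddx4 and Mov10l1 were called higher with it. Without WT replicate 2, the WT library with epididymis transcripts, which all 4 KO libraries also held at lower levels, 0 members were called by limma-voom, with Tdrd9 at 0.21 (adjusted p = 0.0726) and 2642 genes called in all. This was not particular to that library. Without WT replicate 3 or 4 or KO replicate 7 or 8, 0 members were called as well, with 1695, 1746, 2566 and 3288 genes called in that order.

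Other transcripts of the testis moved with genotype beside the members. Of the 12 Sertoli cell markers 9 were called higher (median log2 change 0.48), and their summed level was 1055 to 1240 CPM in WT and 1350 to 1941 in KO. Elongating spermatid markers had 8 of 13 called lower (median -0.24), from 15401 to 16099 CPM in WT to 11244 to 14085 in KO. Round spermatid markers had 5 of 12 called lower (median -0.24), from 1334 to 1384 CPM to 1085 to 1325. Spermatocyte markers had 3 of 13 called lower (median -0.10), at 6655 to 7001 CPM in WT and 5917 to 6510 in KO. For early meiosis, 1 of 15 was called higher and 2 lower (median 0.07), at 1528 to 1685 CPM in WT and 1571 to 1732 in KO. For spermatogonia, 2 of 15 tested were called higher and 1 lower (median 0.21), at 785 to 812 CPM in WT and 737 to 770 in KO for all 17 listed. Leydig markers had 2 of 8 tested called higher and 1 lower, peritubular markers 0 of 5 called by limma-voom and macrophage markers 1 of 7 called higher. On the log2 scale of the fit, 2 of 3 epididymis markers tested were called higher. Their summed mean was nonetheless 32.1 CPM in WT and 27.8 CPM in KO, with WT replicate 2 the highest library. No listed marker of these groups was at 0 in every testes library other than Lcn5 and Lcn8.

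The mean log2 CPM of the 9 members, set against the WT mean, was 0.01, -0.02, -0.00 and 0.01 in the WT libraries and 0.00, 0.03, 0.02 and 0.09 in the KO libraries. Elongating spermatid markers stood at -0.18, -0.20, -0.49 and -0.40 in the same KO libraries, round spermatid markers at -0.05, -0.05, -0.36 and -0.31, and Sertoli markers at 0.38, 0.37, 0.85 and 0.62. KO replicates 7 and 8 were the libraries farthest from WT for these 3 lists, and they also held the low values of Mael and the high values of Piwil2 and Mov10l1. Early meiosis markers did not follow that pattern, at 0.16, 0.12, 0.12 and 0.04 in KO replicates 5 to 8, and Ddx4 was highest in KO replicates 5 and 6. The part of these differences in cell markers in the members' values was not tested.

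**Figure D4:**
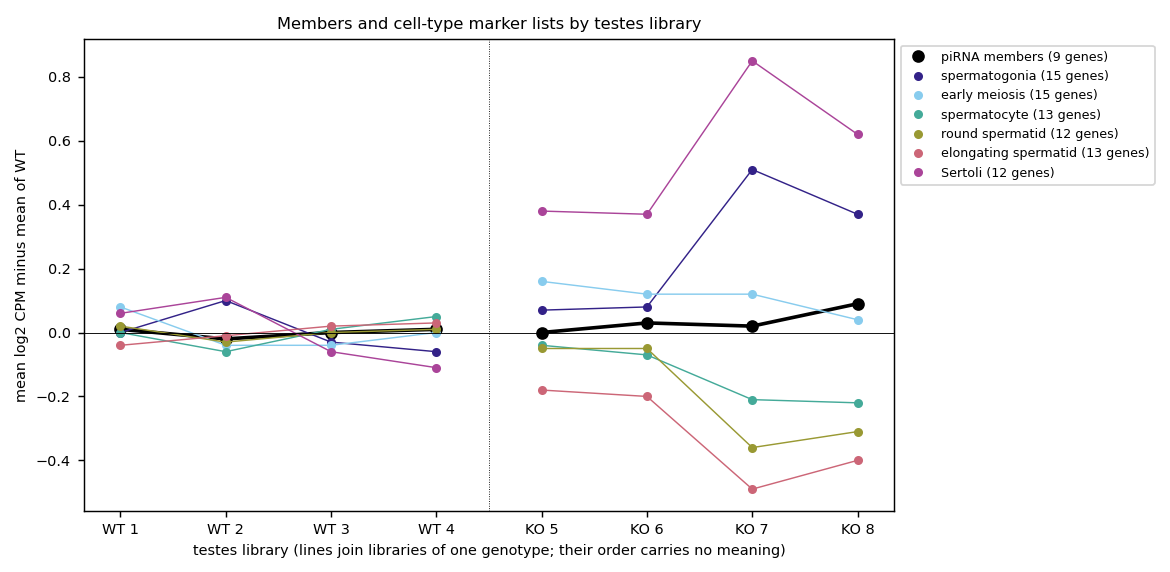
Mean log2 CPM of the 9 tested members (black) and of 6 marker lists in each testes library, minus the mean of the WT libraries. Members stay within -0.02 and 0.09, whereas Sertoli markers reach 0.85 and elongating spermatid markers -0.49 in KO replicate 7.

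The rest of the pathway was followed with 24 further genes. All 24 passed the filter in testes, 2 were called higher and 2 lower, 12 lay above 0 and 12 below, and their median log2 change was 0.00. Over all genes tested, 20.5% were called. Of these 24, 4 had every KO library above every WT library and 2 had every KO library below, beside 18.8% and 9.81% of all genes tested, so that the counts lie near the background. Without WT replicate 2, 2 of the 24 were called.

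Snd1, a tudor domain nuclease found in many cell types, was at 27.2, 30.7, 27.6 and 27.1 CPM in WT testes and at 33.3, 35.6, 48.3 and 40.3 CPM in KO. All KO libraries lay above all WT libraries, and the log2 change was 0.40 ± 0.0993 (adjusted p = 0.0188, limma-voom). The call ended without WT replicate 1 (adjusted p = 0.052), 3 (0.0582) or 4 (0.062). Btbd18, a nuclear protein that promotes transcription of pachytene piRNA precursors, was at 6.11, 6.64, 6.95 and 5.53 CPM in WT and at 7.87, 7.77, 10 and 8.27 CPM in KO. It also had no overlap between genotypes, with a log2 change of 0.33 ± 0.106 (adjusted p = 0.0452, limma-voom). This call ended without any 1 of the WT replicates 1 to 4 (adjusted p = 0.105, 0.0704, 0.0611 and 0.14) or without KO replicate 7 (0.106) or 8 (0.067).

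Dnmt3l, the cofactor of de novo DNA methylation, was at 7.91, 7.76, 6.79 and 6.38 CPM in WT and at 4.38, 3.85, 4.21 and 4.46 CPM in KO. Every KO library lay below every WT library, and the change of -0.88 ± 0.102 on the log2 scale was the largest in size among the pathway genes tested (adjusted p = 0.00157, limma-voom). Its exons overlap Aire on the other strand, so that the gene to which these reads belong is uncertain. Pld6, the mitochondrial nuclease that starts piRNA processing, was at 49.6, 53.3, 51.0 and 51.6 CPM in WT and at 44.5, 47.8, 45.3 and 47.0 CPM in KO. It was lower in every KO library, with a log2 change of -0.23 ± 0.0582 (adjusted p = 0.021, limma-voom). The call ended without WT replicate 2 (adjusted p = 0.0597), 3 (0.0668) or 4 (0.0727) and when centred on spermatocyte markers (-0.02, adjusted p = 0.847). That of Dnmt3l held without each library in turn, with adjusted p from 0.00283 to 0.00932. With neighbouring libraries summed, a setting chosen after seeing the data, the change of Dnmt3l stayed at -0.88 but was not called (adjusted p = 0.149, limma-voom).

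The other 20 genes did not pass. Mybl1, the transcription factor of the pachytene programme, was at 84.0 to 103 CPM in WT and 87.6 to 106 CPM in KO, a log2 change of 0.01 ± 0.0752 (adjusted p = 0.927, limma-voom). Among the piRNA processing enzymes, the trimmer Pnldc1 had a log2 change of 0.04 (interval -0.19 to 0.27) and the methyltransferase Henmt1 of -0.13 (interval -0.29 to 0.02). Spocd1 and Tex15, which act with Piwil4 in the nucleus, had log2 changes of 0.24 (adjusted p = 0.0793) and 0.17 (adjusted p = 0.0706), and Dnmt3c, the rodent methyltransferase of young transposons, 0.54 at 0.519 to 1.77 CPM (adjusted p = 0.121, limma-voom).

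In KO liver no member could be tested, with at most 4 counts in any library. Among the other pathway genes, Pld6 was called lower in KO liver (log2 change -0.73 ± 0.185, adjusted p = 0.0444, limma-voom). It was at 2.07 to 2.52 CPM in WT liver and 1.29 to 1.90 CPM in KO liver. Mybl1 was called lower in KO cerebellum (log2 change -0.35 ± 0.0835, adjusted p = 0.0299, limma-voom), at 12.3 to 13.4 CPM in WT and 8.93 to 11.3 CPM in KO. In cerebellum, Piwil2, Tdrd5 and Tdrd6 passed the filter, of 16225 genes tested there. Piwil2 was at 1.86, 2.31, 1.91 and 1.43 CPM in WT and at 3.00, 2.69, 3.01 and 2.90 CPM in KO cerebellum, from 28 to 57 counts and 44 to 59 counts per library. The KO libraries all lay above the WT libraries. It was called higher, by 1.50-fold (interval 1.18 to 1.91, log2 change 0.59 ± 0.161, adjusted p = 0.0476, limma-voom), beside 3.93% of genes called higher and 6.45% called in either direction.

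Tdrd6 was at 1.82, 1.98, 1.20 and 1.48 CPM in WT and at 2.37, 2.20, 2.45 and 2.32 CPM in KO cerebellum, and Tdrd5 at 0.823, 1.05, 0.708 and 0.663 CPM in WT and at 1.30, 1.28, 1.12 and 1.32 CPM in KO. Neither gene passed (log2 changes 0.47 and 0.52, adjusted p = 0.116 and 0.127, limma-voom), although in both every KO library lay above every WT library, as did 8.79% of all genes tested in cerebellum. Tdrd5 reached 1 CPM in 1 WT library and in all 4 KO libraries, so that it entered the test through the group in which it was higher and its lack of overlap supports nothing. These genes rest on few counts, 13 to 26 a library for Tdrd5. Ddx4, below the filter, had 14 to 18 counts in WT and 10 to 15 in KO cerebellum, with overlapping groups. Piwil2 was not called without WT replicates 1, 3 or 4 or KO replicates 5, 7 or 8 (adjusted p = 0.122, 0.0977, 0.13, 0.109, 0.125 and 0.102 in that order) or with a filter of 1 CPM in 2 libraries (adjusted p = 0.0515).

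Lists of markers of other brain regions, chosen after seeing the data, had higher sums in the KO libraries. Because of that choice, their rise is a description only. Forebrain neuron markers summed to 9.87 to 11.7 CPM in WT and 24.5 to 48.2 CPM in KO cerebellum (2 of 5 tested called higher, 1 of the 7 listed at 0 in every KO library). Midbrain markers summed to 6.15 to 8.65 CPM and 10.3 to 11.3 CPM (2 of 2 tested called higher, 3 of the 8 listed at 0 in every KO library). Neither list was specific to a brain region in this series. In WT liver the midbrain list had a median sum of 85.8 CPM and the forebrain list 2.7 CPM. In WT testes the medians were 4.65 CPM for midbrain and 19.6 CPM for forebrain, and in WT cerebellum 6.93 and 10.9 CPM. The tissue or cells behind the higher sums in KO cerebellum were not tested. The cerebellum libraries also differed in Ttr, which the liver and the choroid plexus express: it was at 935 and 962 CPM in WT replicates 1 and 2, at 317 and 312 CPM in KO replicates 7 and 8, and at 0.816 to 1.96 CPM in the other 4. The hepatocyte markers Alb, Apoa1 and Cyp3a11 stayed at 0 to 0.364 CPM in all 8. Cerebellar neuron markers, all 4 tested, summed to 1466 to 1579 CPM in WT and 1321 to 1486 CPM in KO, with 1 called higher and 2 lower. The part of the brain region markers and of Ttr in the values of Piwil2, Tdrd5 and Tdrd6 was not tested.

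**Figure D5:**
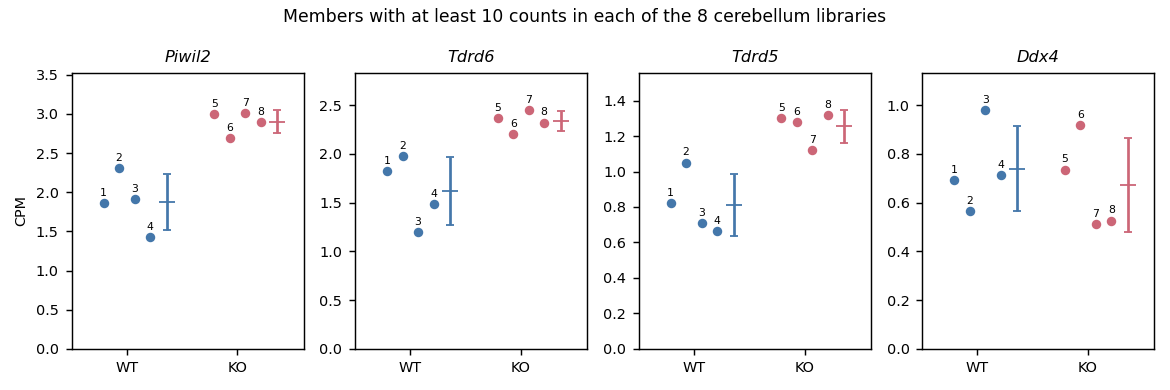
CPM of the 4 members with at least 10 counts in every cerebellum library, WT in blue and KO in red, with replicate numbers and the mean and SD of each genotype. KO libraries lie above WT libraries for Piwil2 (2.69 to 3.01 against 1.43 to 2.31 CPM), Tdrd6 and Tdrd5, and overlap for Ddx4.

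Coding sequences were read for what else the members share, since Thumpd1 acts on leucine and serine tRNAs. Leucine and serine codons made up 15.2% of the longest annotated coding sequence of Ddx4, the lowest of the 10, and 20.7% of that of Piwil4, the highest. The median of the members was 18.5%, beside 17.9% over the 14974 genes tested in testes that have a coding sequence. Tdrd9, the member called in testes, was at 18.7%, with 59.8% of those genes below it, and Mael was at 18.9%, with 61.6% below.

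Genes outside the pathway were ranked by how near they came to the members' average profile over the 8 testes libraries. Among 13040 genes, the smallest root mean square difference from the mean centred log2 CPM of the 10 members was that of Trp53bp1, at 0.0196, then Map7 (0.0233), Fam117b (0.0235), Tnks (0.0256) and Stambp (0.0257), where the median gene was at 0.157. This ranking rests largely on Piwil4, whose 15 to 37 counts a library make its profile the most variable. When the profile was taken over the 9 members tested, a setting chosen after seeing the data, 0 of these 5 genes stayed among the nearest 5, and they ranked from 7 (Tnks) to 317 (Fam117b).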

How the data were processed

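The authors aligned reads of stranded, ribosome-depleted, paired-end libraries to mm10 with STAR and deposited one table of RSEM expected counts per gene (GENCODE M21). These estimated counts are not normalized, and 12.3% to 16.6% of a library's values were not whole, so they were rounded. Groups came from the labels, and each column name matched a single library. Total counts were 16353797 to 37889615. The limit of 3 counts for a count of 0 covers counting error only, whereas the 95% intervals of fitted changes rest on the spread between libraries. Genes with at least 1 CPM in at least 4 libraries were fitted per tissue with voom, quantile normalization and limma 3.58.1 in R 4.3.3, as in the study's methods, which leave the number of libraries open. Adjusted p (Benjamini-Hochberg, over all genes tested) under 0.05 was called. The 12 WT libraries were fitted together with TMM factors. Alternatives used edgeR 4.0.16, DESeq2 1.42.0, other filters, weights, scalings and left-out libraries. Summing neighbouring libraries and a profile without Piwil4 were added after seeing the data, as were the forebrain and midbrain lists. Fits were tested on simulated data. Named are all 10 members, the other pathway genes called in testes (at most 12, by size of change, with all counted), Thumpd1, and the 5 genes nearest the members' mean profile. Mybl1, Pnldc1, Henmt1, Spocd1, Tex15, Dnmt3c, Ttr and the other single markers were named outside that rule, after their values were seen. Members and lists were chosen with earlier results of these data known. Same-numbered WT libraries of different tissues did not deviate together, and KO libraries were not compared in this way.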

Additional observations from a re-analysis of the deposited data

Results flagged for a closer look

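In 74 groups of 4 libraries, taken over the pathway genes, 4 held a library whose gap to the nearest other, as a share of the group's range, was over the 95% critical value of Dixon's test, and chance gives such a gap in about 1 of 20 groups. Piwil1 in KO testes reached 481 CPM in replicate 8, where the other 3 libraries lay at 403 to 414 CPM. Snd1 in WT testes reached 30.7 CPM in replicate 2, the WT library with epididymis transcripts, against 27.1 to 27.6 CPM in the others. Prmt5, the arginine methyltransferase that makes the marks tudor domains bind, reached 49.4 CPM in KO replicate 7 of testes, against 37.7 to 39.4 CPM. Tdrd5 in KO cerebellum was lowest in replicate 7, at 1.12 CPM, against 1.28 to 1.32 CPM.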

How the results depend on the processing

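All 15 alternatives of each comparison of WT tissues, the replicate block included, called 9 members higher in testes than in liver and 9 than in cerebellum, which the filter itself set for the 7 that passed through testes alone. Same-numbered WT libraries of different tissues correlated at -0.0527 to 0.0566, none over 0.1. The labels do not say whether equal numbers mark the same mouse, and low correlations cannot exclude it. No paired analysis was possible for KO against WT because WT and KO libraries share no replicate number. In testes the count of genes called was 6098 with sample quality weights, 6211 when centred on spermatocyte markers, 1 with neighbouring libraries summed (chosen after seeing the data) and 1695 to 4924 with a library left out, and it fell by over 1.5 times without WT replicate 2 (2642), 3 (1695) or 4 (1746) or KO replicate 7 (2566). Members called in testes numbered 0 with edgeR, with no filter and with neighbouring libraries summed, 2 with sample quality weights, 4 when centred on spermatocyte markers and 0 to 2 with a library left out. Other pathway genes called numbered 8 when centred, 0 when summed and 1 to 5 with a library left out, and the adjusted p over all alternatives ranged from 0.00164 to 0.193 for Snd1, 0.0164 to 0.517 for Btbd18, 0.00438 to 0.847 for Pld6 and 9.49e-09 to 0.149 for Dnmt3l. In cerebellum 0 members were called with a filter of 1 CPM in 2 libraries, and 0 to 1 with a library left out. Signs turned for Piwil1 (edgeR -0.04, DESeq2 -0.05, TMM -0.05), Tdrd1 (edgeR -0.07, DESeq2 -0.08, TMM -0.07, quality weights -0.03, libraries left out -0.02 to 0.05), Tdrd5 (centred 0.14, summed 0.00, libraries left out -0.03 to 0.02) and Tdrd6 (centred 0.06). The centred values of Tdrd5 and Tdrd6 lie below the 0.21 to which that centring moves the median of all genes. A value above 0 there is therefore not a rise relative to the median gene. The cause of the turned signs was not tested. Depth limits Piwil4 in testes and all members in cerebellum and liver.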
